A study of Mus musculus with 130 samples.

Results

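The 10 genes described here mark the zones of the liver lobule: 7 pericentral genes (Glul, Oat, Lgr5, Axin2, Tbx3, Slc1a2 and Rhbg) and 3 periportal genes (Hal, Sds and Gls2). The rule lists the members by name and uses no measured value, though they were chosen with earlier results of these data known. All 10 were found among the 35274 gene identifiers of the diet tables and the 35711 of the panel tables. Liver RNA came from 130 male mice. In the diet study, C57BL/6J mice in groups of 3 ate chow, a sufficient diet with 50 ppm iron, an elevated diet with 500 ppm iron, 2% carbonyl iron (20000 ppm), or 2% carbonyl iron with cellulose as the fibre source. The strain panel covers 114 inbred strains, fed 2% carbonyl iron for 6 weeks after 4 weeks of chow, with 1 mouse per strain and 2 for 129X1/SvJ, so a strain value is the value of a mouse. The panel holds recombinant inbred families, which are inbred lines bred from a cross of a pair of strains: 56 BXD, 20 AXB/BXA, 4 BXH and 3 CXB strains, beside 31 other inbred strains. No panel mouse was on a diet low in iron, so the panel shows strain differences on 2% iron and no response to iron. The labels give no age, no batch, no iron content of the chow and no feeding time for the diet mice. Chow and the other diets may differ in more than iron, and the fibre source of the diets without cellulose is not given in the sources used here.

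Blood enters the lobule at the portal tracts and leaves at the central vein, and hepatocytes along that path express different genes. Wnt ligands made by endothelial cells of the central vein sustain the pericentral programme, and the ammonia and amino acids arriving with portal blood are handled by enzymes of the periportal zone. Glutamine synthetase, the product of Glul, is confined in the healthy mouse lobule to a narrow ring of hepatocytes at the central vein, where it takes up the ammonia that the urea cycle has left. A piece of whole liver gives the average over all zones. In such RNA, fewer cells of a zone and less RNA of a gene per cell cannot be told apart.

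The libraries held 10.4 to 20.4 M counts (M, 1000000) in the diet study and 9.41 to 20.6 M in the panel. Values below are CPM (counts scaled to library size) adjusted between libraries with TMM factors, and levels of different genes are compared as TPM, which also divides by transcript length. A call means that the adjusted p was under 0.05 in edgeR's quasi-likelihood test with Benjamini-Hochberg adjustment over all genes tested. Nothing in the labels says more about the mice of a group than that they are separate mice, so p-values measure the spread between these mice. The 9 hepatocyte markers summed to 83830 to 103300 CPM in every diet library, and markers of the exocrine pancreas to 3.70 to 12.9 CPM there. In the panel, the library labelled BXD65/RwwJ had a Y-linked sum of 3.86 CPM against at least 124 CPM in the others, although its label says male. The comparison of the BXD and AXB/BXA families is given with and without it, and the other panel values printed here include it. The mice of a diet are numbered 1 to 3 in the order of their deposit, and the numbers do not pair mice across diets.

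Windows upstream of the RefSeq start (build GRCm38.p6) were at hand for 5 of the 10 genes: Glul, Oat, Axin2, Slc1a2 and Hal. The 250 bases before each start were searched on both strands for the letters CTTTGAT and CTTTGAA, which TCF/LEF factors, the DNA-binding partners of beta-catenin, recognise, for CAAAGTCCA (HNF4A) and for the element of the glucocorticoid receptor. CTTTGAT was found in 2 of the 5, on the opposite strand, read as ATCAAAG, before Slc1a2 and on the gene's strand before Hal. The other letters were in none of the 5. Of 32851 mouse promoter windows of this length, 3.21% held CTTTGAT and 7.48% held CTTTGAT or CTTTGAA, 0.384% held the HNF4A letters and 0.387% the glucocorticoid letters. A match is a description of the letters and no evidence of binding. The windows of the pericentral Slc1a2 and the periportal Hal are shown because both hold the letters, in capitals, and those of Glul and Axin2 because these genes are known for their response to Wnt and hold no match here. All 4 are read 5' to 3' on the plus strand: Slc1a2 at chr2:102706188-102706355, Hal at chr10:93488518-93488767, Glul at chr1:153899679-153899928 and Axin2 at chr11:108920099-108920348. The Slc1a2 stretch ends 82 bases short of the RefSeq start, where an annotated exon begins, and it lies inside the gene, whose longest annotated form starts farther upstream.
Slc1a2: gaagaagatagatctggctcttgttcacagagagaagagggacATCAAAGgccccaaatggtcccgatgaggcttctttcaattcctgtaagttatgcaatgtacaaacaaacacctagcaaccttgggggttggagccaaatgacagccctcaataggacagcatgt
Hal: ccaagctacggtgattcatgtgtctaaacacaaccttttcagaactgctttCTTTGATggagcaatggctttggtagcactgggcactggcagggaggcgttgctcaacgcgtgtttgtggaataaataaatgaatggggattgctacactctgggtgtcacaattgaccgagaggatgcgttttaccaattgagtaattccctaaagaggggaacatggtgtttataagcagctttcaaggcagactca
Glul: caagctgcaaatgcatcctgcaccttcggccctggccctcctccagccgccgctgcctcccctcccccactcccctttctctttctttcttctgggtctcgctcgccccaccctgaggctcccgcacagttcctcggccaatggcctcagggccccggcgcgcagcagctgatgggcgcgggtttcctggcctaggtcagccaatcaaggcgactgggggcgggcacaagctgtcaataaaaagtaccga
Axin2: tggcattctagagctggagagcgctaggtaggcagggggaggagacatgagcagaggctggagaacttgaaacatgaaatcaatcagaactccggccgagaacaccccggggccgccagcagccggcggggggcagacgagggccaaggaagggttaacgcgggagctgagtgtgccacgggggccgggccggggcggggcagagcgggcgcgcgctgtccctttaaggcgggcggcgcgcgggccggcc

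On 50 ppm iron the 10 genes spanned a wide range of levels. Glul was the highest at 478 ± 56.6 TPM (SD, n = 3), followed by Oat at 294 ± 50.4, Sds at 172 ± 69.3, Hal at 123 ± 7.46 and Gls2 at 94.9 ± 14.8 TPM. Slc1a2 had 31.8 ± 3.85 TPM and Tbx3 13.9 ± 2.15 TPM. Axin2 (4.23 ± 0.93 TPM), Lgr5 (2.89 ± 0.76) and Rhbg (1.47 ± 0.30) were the lowest. In that order the neighbours Sds and Hal, and Axin2 and Lgr5, overlapped within their SD, and so did Sds and Gls2. Low genes rest on few reads: over the 15 diet libraries Rhbg had 5.48 to 93.2 counts and Lgr5 16.4 to 191, against 4052 to 15016 for Glul.

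All 7 pericentral genes had a lower mean on 2% iron than on 50 ppm, and 3 of them, Slc1a2, Lgr5 and Rhbg, fell by the test, while none of the 3 periportal genes was called. Over all genes this comparison called 15.7% of 13560, 7.17% lower and 8.52% higher. On 2% iron with cellulose all 7 pericentral genes were called lower than on 50 ppm and again none of the periportal genes, where 29.7% of all genes were called, 14.3% lower. Against chow, 3 pericentral genes (Slc1a2, Rhbg and Oat) and the periportal Gls2 fell, with 22.8% of all genes called and 10.9% lower. These comparisons share mice: the 50 ppm group is the control of both iron diets, and the 2% group enters the comparisons with 50 ppm, 500 ppm and chow. Their values are therefore set side by side and are not independent of each other. The genes are taken in turn below, first those of the Wnt pathway, then the pericentral enzymes and transporters, then the periportal enzymes.

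**Figure D1:**
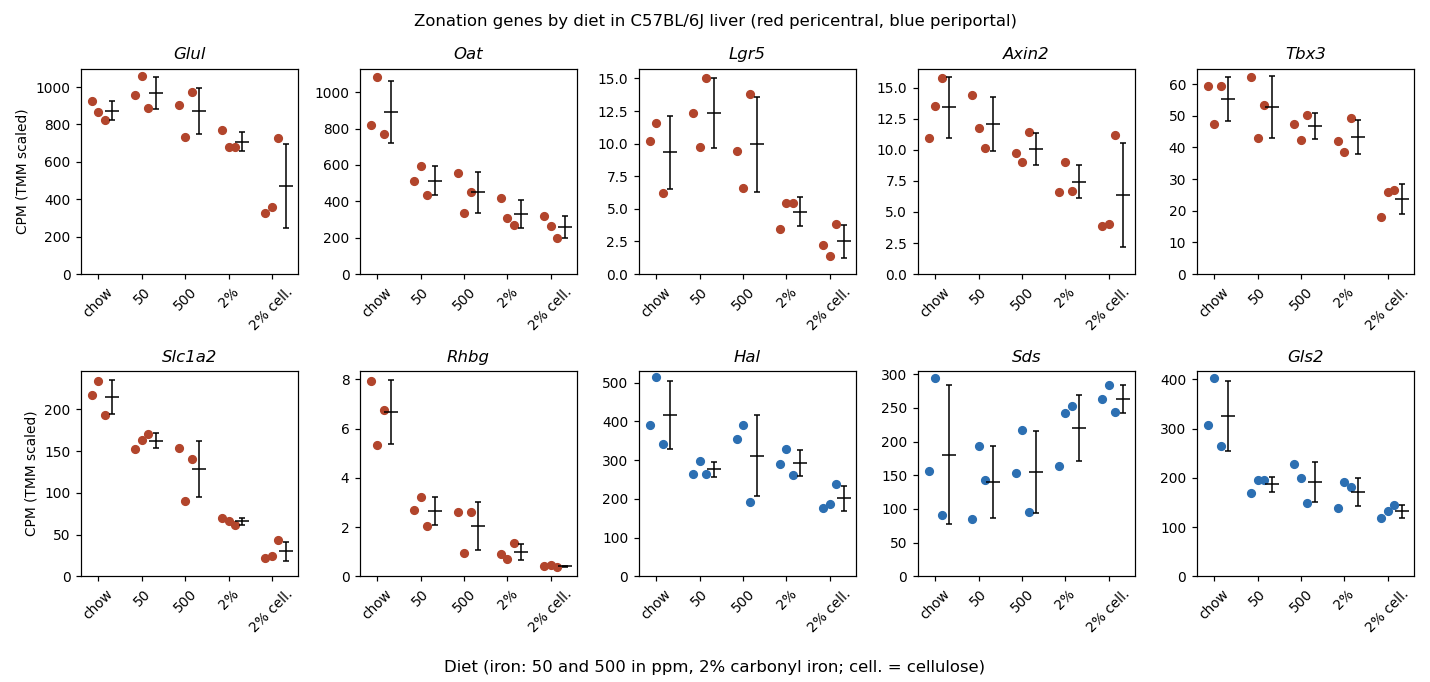
CPM of the 10 genes in each of the 15 C57BL/6J mice, with 1 point per mouse and the mean ± SD of 3 mice beside the points, for 5 diets on the horizontal axis. Slc1a2 and Rhbg descend from chow to 2% iron with cellulose, whose mouse 3 stands above its group mates for Glul (729 against 325 and 357 CPM) and Axin2 (11.2 against 3.84 and 4.05 CPM).

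Lgr5 (ENSMUSG00000020140, chromosome 10 at 115450311 to 115587780 of GRCm38) encodes a receptor for R-spondins, which strengthen Wnt signals. Its levels were 12.3, 9.71 and 15.1 CPM on 50 ppm, 9.43, 6.59 and 13.8 CPM on 500 ppm, and 10.2, 11.6 and 6.19 CPM on chow. They were 3.47, 5.46 and 5.45 CPM on 2% iron and 2.24, 1.41 and 3.86 CPM with cellulose. The first 3 diets overlapped each other, every 2% mouse lay below every mouse of those diets, and the cellulose group overlapped the 2% group in its mouse 3. Lgr5 fell by 1.37 on the log2 scale on 2% iron against 50 ppm (SE 0.35, adjusted p 0.0173), and with cellulose the log2 change was -2.29 (SE 0.37, adjusted p 0.000695). Against chow the log2 difference was -0.95 (SE 0.35, adjusted p 0.0659) and against 500 ppm -1.03 (SE 0.35, adjusted p 0.0705). The 50 ppm call was lost when mouse 1 of the 2% group or mouse 1 or 3 of the 50 ppm group was left out, with adjusted p-values of 0.0686, 0.0521 and 0.0611. It was also lost with limma, at -0.68 (adjusted p 0.217) on log2(TPM + 1) and -0.97 (0.203) on log2(TPM + 0.1). A gene on the opposite strand, A930009A15Rik, shares 12463 bases of the Lgr5 locus, and the strand used in counting is not given in the sources used here.

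Axin2 (ENSMUSG00000000142, chromosome 11 at 108920349 to 108950783) encodes a scaffold of the complex that destroys beta-catenin and is itself switched on by Wnt, so it acts as a feedback inhibitor. It stood at 14.4, 11.8 and 10.1 CPM on 50 ppm, 10.9, 13.6 and 15.8 CPM on chow, 9.78, 8.98 and 11.5 CPM on 500 ppm, 6.61, 8.99 and 6.73 CPM on 2% iron, and 3.84, 4.05 and 11.2 CPM with cellulose. The 2% mice lay below all 50 ppm and chow mice and touched the 500 ppm range at 8.98 and 8.99 CPM. Mouse 3 of the cellulose group lay above all 2% mice and inside the 50 ppm range. The log2 difference was -0.70 on 2% iron against 50 ppm (SE 0.32, adjusted p 0.159) and -0.85 against chow (SE 0.32, adjusted p 0.0680). With cellulose Axin2 was called lower than on 50 ppm at -0.92 (SE 0.32, adjusted p 0.0450), but this call was lost in 12 of the 15 fits that left out a mouse. Without mouse 3 of the cellulose group the adjusted p of this comparison was 0.000424, and that of 2% iron against 50 ppm, which shares the estimate of the spread, was 0.0188.

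Tbx3 (ENSMUSG00000018604, chromosome 5 at 119670669 to 119684724) encodes a T-box transcription factor of pericentral hepatocytes. Chow mice had 59.4, 47.4 and 59.3 CPM, 50 ppm mice 62.4, 42.8 and 53.4 CPM, 500 ppm mice 47.5, 42.4 and 50.3 CPM and 2% mice 41.9, 38.6 and 49.2 CPM. The cellulose mice had 18.1, 25.97 and 26.7 CPM. The first 4 diets overlapped, and the cellulose mice lay below all 12 other mice. Tbx3 fell by 1.17 on the log2 scale with cellulose against 50 ppm (SE 0.17, adjusted p 0.000334). On 2% iron without cellulose the log2 difference from 50 ppm was -0.29 (SE 0.16, adjusted p 0.247). Between both iron diets it was -0.88 (SE 0.17, adjusted p 0.0578), the lowest adjusted p of the 10 genes in that comparison, in which 11 genes or 0.0811% of all were called, 0.0737% lower and 0.00737% higher.

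Glul (ENSMUSG00000026473, chromosome 1 at 153899944 to 153909723), the glutamine synthetase gene, had 959.6, 1058 and 887 CPM on 50 ppm, 926, 867 and 826 CPM on chow, and 906, 733.2 and 975 CPM on 500 ppm. It had 769, 678 and 679 CPM on 2% iron and 325, 357 and 729 CPM with cellulose. These first 3 groups overlapped, the 2% mice lay below all 50 ppm and chow mice but not below all 500 ppm mice, and mouse 3 of the cellulose group lay within the 2% range. Glul fell by 1.05 with cellulose against 50 ppm (SE 0.23, adjusted p 0.00486). On 2% iron without cellulose its log2 difference was -0.45 against 50 ppm (SE 0.23, adjusted p 0.209) and -0.30 against chow (SE 0.23, adjusted p 0.390), the smallest of the pericentral genes against chow. Without mouse 3 of the cellulose group Glul was called in 2% iron against 50 ppm (adjusted p 0.0196) and in cellulose against 2% iron, at -1.06 (adjusted p 0.00399). Teddm2, on the opposite strand, shares 285 bases with the Glul locus.

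Oat (ENSMUSG00000030934, chromosome 7 at 132557478 to 132576398) encodes ornithine aminotransferase, which turns ornithine toward glutamate in the same cells. Chow mice had 822, 1086 and 770.2 CPM, above every mouse of the other 4 diets. The 50 ppm mice had 510.05, 597 and 436 CPM, the 500 ppm mice 557, 335 and 454 CPM, the 2% mice 418, 309 and 269 CPM and the cellulose mice 318, 264 and 199 CPM. Each of these 4 groups overlapped its neighbour in that order, while the 2% mice lay below all 50 ppm mice. Oat fell by 1.43 on 2% iron against chow (SE 0.23, adjusted p 0.00082), and the log2 change with cellulose against 50 ppm was -0.98 (SE 0.23, adjusted p 0.00606). On 2% iron against 50 ppm the log2 difference was -0.63 (SE 0.23, adjusted p 0.0779). The 50 ppm and chow groups differed by 0.80 in favour of chow (SE 0.23, adjusted p 0.202), a difference that DESeq2 called (adjusted p 0.0447). The annotated Fgfr2 locus covers all 18921 bases of Oat on the same strand.

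Slc1a2 (ENSMUSG00000005089, chromosome 2 at 102658659 to 102790784) encodes the glutamate transporter GLT-1, which supplies glutamate to the cells that make glutamine. Chow mice had 216.9, 234 and 194 CPM, 50 ppm mice 153, 164 and 170.4 CPM, and 500 ppm mice 154, 90.3 and 140.7 CPM. The 2% mice had 70.1, 66.4 and 61.7 CPM and the cellulose mice 21.9, 24.4 and 43.4 CPM. The 50 ppm and 500 ppm groups overlapped, and every other neighbouring pair of diets was separate, so Slc1a2 stepped down from chow to 50 and 500 ppm, to 2% iron and to 2% iron with cellulose. It fell by 1.29 on 2% iron against 50 ppm (SE 0.22, adjusted p 0.00247). The log2 change was -1.70 against chow (SE 0.23, adjusted p 0.000254) and -0.94 against 500 ppm (SE 0.22, adjusted p 0.0148). With cellulose it fell by 2.44 against 50 ppm (SE 0.23, adjusted p 2.52e-05), and the log2 difference from 2% iron was -1.15 (SE 0.23, adjusted p 0.0704). The 50 ppm call held under each alternative run, with adjusted p-values from 5.82e-07 to 0.0142. The 500 ppm call was lost without mouse 3 of the 2% group (0.0624), without mouse 1 (0.0741) or 3 (0.0563) of the 500 ppm group, and with limma on log2(TPM + 1), where the log2 difference was -0.48 (adjusted p 0.175).

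Rhbg (ENSMUSG00000104445, chromosome 3 at 88242874 to 88254709) encodes an ammonium transporter of the Rhesus family found on pericentral hepatocytes. Chow mice had 7.92, 5.35 and 6.77 CPM, above all other mice. The 50 ppm mice had 2.70, 3.205 and 2.06 CPM, the 500 ppm mice 2.60, 0.928 and 2.60 CPM, the 2% mice 0.909, 0.705 and 1.36 CPM and the cellulose mice 0.400, 0.440 and 0.386 CPM. The 2% mice lay below all 50 ppm mice and above all cellulose mice, and mouse 2 of the 500 ppm group lay inside their range. Rhbg fell by 2.73 on 2% iron against chow (SE 0.36, adjusted p 0.000254), the largest fall of the 10 genes in that comparison. It fell by 1.40 against 50 ppm (SE 0.38, adjusted p 0.0249), and with cellulose the log2 change was -2.67 (SE 0.43, adjusted p 0.000723). The 50 ppm call was lost without mouse 1 (0.0771) or 2 (0.0833) of the 2% group and without mouse 1 (0.0739) or 2 (0.0777) of the 50 ppm group, and with limma on log2(TPM + 1), where the log2 change was -0.64 (adjusted p 0.0529). Between chow and 50 ppm the log2 difference was 1.33 (SE 0.33, adjusted p 0.128), which was called by DESeq2 (0.0453) and in edgeR without mouse 2 of the 500 ppm group (0.0293). Rhbg drops out of the test where 10 counts in every library are asked for. The annotated gene model Gm38392 covers 11330 bases of the Rhbg locus on the same strand, so the division of reads between them is uncertain.

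**Figure D2:**
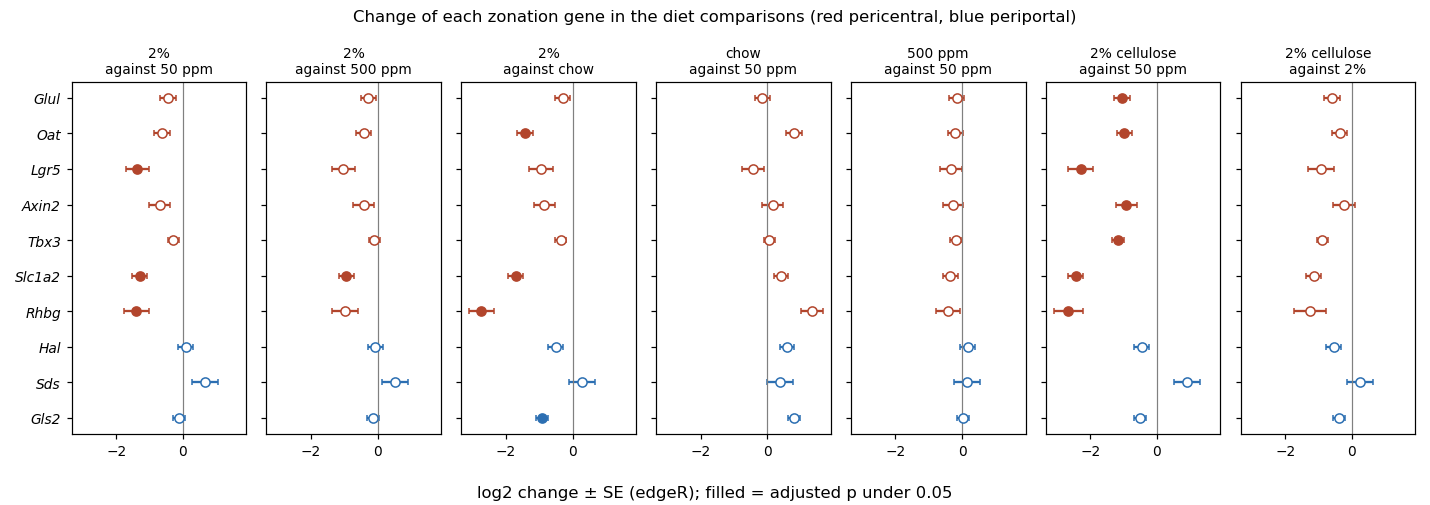
Log2 change with its standard error for the 10 genes in 7 comparisons of diets (edgeR), with filled points for an adjusted p under 0.05. All 7 pericentral genes are filled and to the left of 0 for 2% iron with cellulose against 50 ppm, 3 are filled for 2% iron against 50 ppm, and none is filled for 500 ppm against 50 ppm.

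Hal (ENSMUSG00000020017, chromosome 10 at 93488768 to 93519304), encoding histidine ammonia-lyase, the first enzyme of histidine breakdown, had 390.6, 513 and 343 CPM on chow and 353, 389.8 and 192 CPM on 500 ppm. It had 289, 328 and 261 CPM on 2% iron, 265, 298 and 265 CPM on 50 ppm and 178, 186.4 and 239 CPM with cellulose. Neighbouring diets in this order overlapped except 50 ppm and cellulose, and the 50 ppm mice lay within or near the 2% range. The log2 difference of 2% iron was 0.09 against 50 ppm (SE 0.22, adjusted p 0.832) and -0.50 against chow (SE 0.22, adjusted p 0.120). The cellulose mice lay below all 50 ppm and 2% mice, at -0.46 against 50 ppm (SE 0.22, adjusted p 0.134).

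Sds (ENSMUSG00000029597, chromosome 5 at 120476526 to 120483932), encoding serine dehydratase, which feeds serine into gluconeogenesis, was the only member with a higher mean on both 2% diets than on the other 3. It had 85.4, 192.9 and 142.3 CPM on 50 ppm, 153, 216.8 and 95.2 CPM on 500 ppm, 156.1, 294 and 91.4 CPM on chow, 164, 243 and 253 CPM on 2% iron and 263, 285 and 243.75 CPM with cellulose. The first 4 of these diets overlapped each other, chow mice covering the widest range, and the cellulose mice lay above all 50 ppm and 500 ppm mice. The log2 difference from 50 ppm was 0.66 on 2% iron (SE 0.39, adjusted p 0.279) and 0.91 with cellulose (SE 0.39, adjusted p 0.0944), so Sds was not called. A fit of the cellulose and 50 ppm mice alone gave an adjusted p of 0.0324 for Sds, 0.0345 for Hal and 0.0135 for Gls2. Sds shares 651 bases with Plbd2 and Gls2 97 bases with Spryd4, both on the opposite strand.

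Gls2 (ENSMUSG00000044005, chromosome 10 at 128194457 to 128210004) encodes the liver glutaminase, which releases ammonia from glutamine for the urea cycle, the reverse of the Glul reaction. Chow mice had 307, 403 and 265 CPM, above all other mice. The 500 ppm mice had 227, 200.2 and 148 CPM, the 50 ppm mice 169, 195.9 and 194.5 CPM, the 2% mice 139, 192 and 182 CPM and the cellulose mice 119, 132 and 146 CPM. These 4 diets overlapped their neighbours, but the cellulose mice lay below all 50 ppm mice. Gls2 fell by 0.93 on 2% iron against chow (SE 0.18, adjusted p 0.0027). Against 50 ppm the log2 difference was -0.13 on 2% iron (SE 0.18, adjusted p 0.691) and -0.50 with cellulose (SE 0.18, adjusted p 0.0510). Chow and 50 ppm differed by 0.80 (SE 0.18, adjusted p 0.0903). DESeq2 called this last difference, with an adjusted p of 0.00297.

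Where the CPM of the groups did not overlap, the members were counted against all genes. On 2% iron, 6 members (Glul, Oat, Lgr5, Axin2, Slc1a2 and Rhbg) lay below all 50 ppm mice, as did 18% of genes, with 19% wholly higher. Against chow 8 members lay wholly lower, all but Tbx3 and Sds, where 20.1% of genes did. Against 500 ppm it was 2 members, Lgr5 and Slc1a2, with 15.3% of genes, and only Slc1a2 was called where 11.3% of genes were, with 4.75% of all called lower. With cellulose, 8 members lay below all 50 ppm mice (all but Axin2 and Sds; 21.8% of genes) and Sds above them (22.7%). Tbx3, Slc1a2, Rhbg and Hal lay lower with cellulose than without (8.97% of genes, with 8.51% wholly higher), and no member was called. No member was separate between 500 ppm and 50 ppm (3.45% of genes wholly lower and 3.98% higher), and edgeR called 0 genes there, with 428 at an unadjusted p under 0.05 and 2 called by DESeq2. Between chow and 50 ppm, Oat, Slc1a2, Rhbg, Hal and Gls2 were wholly higher on chow (9.22% of genes, with 8.1% wholly lower), and none of the 10 was called where 0.391% of genes were.

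Mouse 2 of the 500 ppm group and mouse 3 of the cellulose group stood apart from their group mates for several of these genes. Without the former, Lgr5 (adjusted p 0.0247) and Rhbg (0.00795) joined Slc1a2 as called in 2% iron against 500 ppm. Without the latter, 5 pericentral genes in place of 3 were called in 2% iron against 50 ppm and 5 in place of 3 against chow, and 3 in place of 0 in cellulose against 2% iron (Glul, Tbx3 and Slc1a2). All 7 stayed called in cellulose against 50 ppm in both fits.

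The 27 tested genes of a further pericentral list had a median log2 change of -0.31 on 2% iron against 50 ppm, with 9 called lower and 3 higher, beside a median of 0.01 over all genes. Cyp2e1, a cytochrome P450 that metabolises ethanol, fell (log2 change -1.07), as did Slc22a3, an organic cation transporter (-1.65), Car3, a carbonic anhydrase (-2.33), and Cyp7a1, the rate-limiting enzyme of bile acid synthesis (-1.36). Gstm3, a glutathione transferase, and Slc13a3, a dicarboxylate transporter, rose by 1.59 and 1.502, so the list did not move as a whole. Against chow 18 of its genes were called lower and 2 higher (median -0.92), and with cellulose against 50 ppm 13 lower and 3 higher (median -0.55). In the further periportal list of 27 tested genes, 5 were called higher and 6 lower against 50 ppm, with a median of 0.10. Apoa4, a lipoprotein component, rose by 1.96 and the protease gene Ctsc by 0.81, while the steroid enzyme gene Hsd17b6 (-1.80) and Igfals, of insulin-like growth factor binding (-0.78), fell. Against chow the periportal list had 7 higher and 9 lower (median -0.31), and with cellulose against 50 ppm 6 and 6 (median -0.06).

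Among ligands and enhancers of the Wnt pathway (Wnt2, Wnt4, Wnt5a, Wnt9b and Rspo3 were tested), none of 5 was called on 2% iron against 50 ppm, and the sum of the 6 genes of that list was 9.58 to 11.15 CPM on 2% iron and 9.82 to 14.96 CPM on 50 ppm. Against 500 ppm, Wnt5a (-1.01) and Wnt9b (-2.17) fell. Against chow only Wnt9b of these 5 genes was called lower (-2.41, SE 0.65), and Wnt5a was at -0.009. Of 17 receptors and core components, 4 were called lower and none higher. These were the Frizzled receptor genes Fzd5 (log2 change -1.25), Fzd8 (-1.11) and Fzd4 (-0.38) and the transcription factor gene Tcf7l1 (-0.38). Ctnnb1, which encodes beta-catenin, was at 0.05 (adjusted p 0.644). Of 11 target and feedback genes, Sp5, a transcription factor (-2.14), and Rnf43, a ligase that removes Frizzled receptors (-0.87), fell, while Ccnd1, which encodes cyclin D1, rose by 2.57. With cellulose against 50 ppm Sp5 (-2.54), Rnf43 (-1.04) and Notum (-0.80), which encodes an enzyme that inactivates Wnt, fell, and Ccnd1 (3.30) and Myc (2.09) rose.

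Of 22 tested genes of ammonia, glutamine and urea handling, 4 fell and 1 rose on 2% iron against 50 ppm (median -0.05). Those that fell were Aldh4a1, a mitochondrial enzyme of proline breakdown (-0.58), the amino acid transporter gene Slc38a4 (-0.51), Aqp9, a glycerol and urea channel (-0.50), and Otc of the urea cycle (-0.41). The urea cycle genes Cps1 (0.05, adjusted p 0.900), Ass1 (0.10, 0.815), Asl (0.20, 0.685) and Arg1 (0.17, 0.697), which also stand on the periportal list, were not called. Of 25 genes of amino acid breakdown, 10 fell and 1 rose, with a median of -0.35. Among them Hpd, of tyrosine breakdown, fell by 0.74 and Pck1, of gluconeogenesis, fell by 0.65, while Acmsd, of tryptophan breakdown, rose by 1.49. Amdhd1 (-0.48) and Ftcd (-0.37), later steps of the pathway that Hal opens, fell, while Uroc1, the step directly after Hal, was at -0.02 (adjusted p 0.950).

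Markers of other cells moved with the same groups. The 10 Kupffer cell and macrophage markers summed to 525 to 550.3 CPM on 2% iron and 514.4 to 785 CPM with cellulose, against 125 to 212 CPM on 50 ppm, and 8 of the 10 were called higher on 2% iron, with a median log2 change of 1.62. Erythroid markers summed to 323 to 475 CPM on 2% iron, 167 to 441 CPM with cellulose and 67.6 to 109 CPM on 50 ppm, with 5 of 6 tested genes higher and Alas2, of haem synthesis, lower. Sinusoidal endothelial markers were at 688 to 755 CPM on 2% iron and 502.4 to 663 CPM on 50 ppm, with Cdh5 and Stab2 of 12 called higher. Of 9 hepatocyte markers 4 were called lower and none higher, though their sum was 97750 to 103300 CPM on 2% iron and 86930 to 95000 CPM on 50 ppm. Of 7 tested proliferation genes, Mki67 and Top2a rose. On 2% iron against 50 ppm, none of the 4 tested cholangiocyte genes, the 9 stellate cell genes or the single tested pancreatic gene was called. In the same comparison 1 of 7 lymphocyte genes was. Against chow, 5 of the 9 stellate cell genes were called higher (median log2 change 0.749), where 11.9% of all genes were. The pancreatic gene, Cela1, was called lower there (-1.18), and no cholangiocyte gene was called. The part of these shifts in the levels of the zonation genes was not tested.

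Across the 114 strains on 2% iron, the zonation genes spread widely. Slc1a2 ran from 2.67 CPM in NZB/BlNJ, followed by 7.43 CPM in BTBR T<+> tf/J, over a median of 85.9 CPM to 335 CPM in BXA26/PgnJ, with 218 CPM in BXD15/TyJ as the next highest, a 125-fold range. Glul ran from 124 CPM in NZW/LacJ over 577 to 1244 CPM in BXA26/PgnJ, a 10.1-fold range, and Oat from 62.7 CPM in NZW/LacJ over 275 to 793 CPM in BXD15/TyJ. NZB/BlNJ, lowest for Slc1a2, was second highest for Oat at 675.1 CPM. Lgr5 ran from 0.809 CPM in NZB/BlNJ over 4.13 to 10.7 CPM in SWR/J, and Axin2 from 0.711 CPM in AKR/J over 8.56 to 18.6 CPM in BXA13/PgnJ. Tbx3 ran from 9.44 CPM in NON/ShiLtJ over 35.6 to 120.1 CPM in NOR/LtJ, which stood well above the next strain, C58/J at 70.9 CPM. Markers of other cells also varied among the panel libraries: erythroid markers summed to 3.70 to 2614 CPM, Kupffer cell markers to 198 to 861 CPM, proliferation markers to 4.80 to 282 CPM and pancreatic markers to 2.95 to 1085 CPM, with the highest of each in the other inbred strains. Their part in the strain levels was not tested. For Lgr5 and Axin2, counts limit precision: Lgr5 had 10.3 to 134 counts per library and Axin2 8 to 246.

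Rhbg had 0 counts in NOR/LtJ, C58/J, BXD48a/RwwJ and BXH2/TyJ, which allows up to 0.274, 0.241, 0.245 and 0.195 CPM in these libraries (3 counts, counting error only). Its median was 1.59 CPM and its highest levels were 6.84 CPM in SWR/J and in BXD48/RwwJ. BXD48/RwwJ and BXD48a/RwwJ carry nearly the same name, and they lay far apart for several members: Tbx3 was 65.2 and 13.8 CPM, Glul 747 and 289 CPM and Axin2 13.5 and 4.37 CPM. Among the periportal genes, Hal ran from 86.3 CPM in BTBR T<+> tf/J over 325 to 751 CPM in BXD66/RwwJ. Sds ran from 47.1 CPM in SJL/J over 194 to 522 CPM in BXD100/RwwJ, and Gls2 from 45.7 CPM in RIIIS/J over 223 to 435 CPM in BXD38/TyJ. Some strains recurred at the ends. AKR/J, NON/ShiLtJ and NZW/LacJ each had 5 of the 7 pericentral genes among their 10 lowest strains, BXD15/TyJ had 6 of 7 among the 10 highest, and SJL/J had all 3 periportal genes among the 10 lowest. The share of all genes at the ends in these strains was not counted, and the pericentral genes are correlated with each other across strains.

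**Figure D3:**
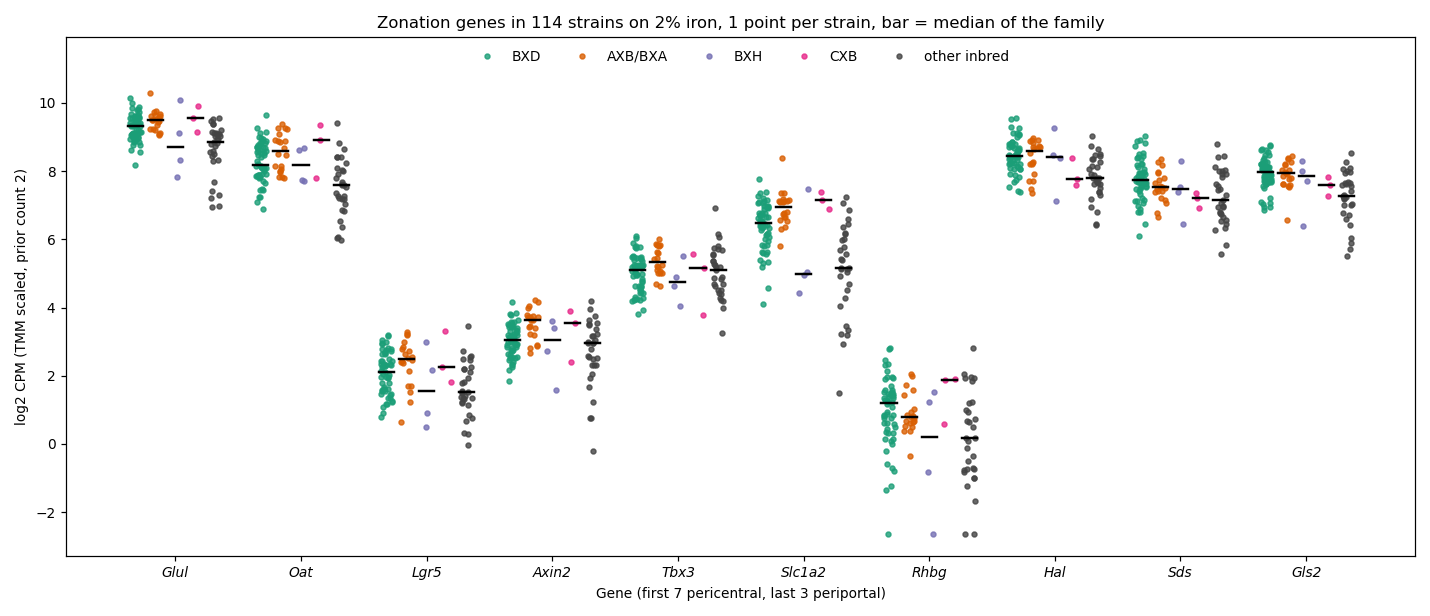
Log2 CPM of the 10 genes in 114 strains on 2% iron, with 1 point per strain, coloured by family, and a bar at the median of each family. Slc1a2 and Rhbg have the widest spread, the strain at the top of Tbx3 is NOR/LtJ at 120.1 CPM, and the points at the bottom of Rhbg are strains with 0 counts.

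The spread between strains was set against the spread between mice of a diet in the diet study, both as SD of log2 CPM; the tables were processed separately. The ratio was 3.68 for Slc1a2, 2.71 for Tbx3, 2.68 for Rhbg, 2.59 for Gls2, 2.45 for Oat, 1.97 for Glul and for Hal, 1.67 for Axin2, 1.54 for Lgr5 and 1.21 for Sds. The median over 12644 genes was 1.69. Slc1a2 exceeded 96.7% of genes, while Axin2 (48.7%), Lgr5 (39.8%) and Sds (15.7%) lay below the median. For Lgr5 the ratio was 0.89 on log2(TPM + 1). The mice of both 2% diets alone share the 2% iron of the panel, but their fibre source and feeding time may differ from it. No median over all genes was computed against these mice. Against them the order changed: Rhbg had 3.94, Hal and Gls2 3.07 each, Slc1a2 3.01, Sds 2.635, Tbx3 2.41, Oat 2.28, Lgr5 1.38, Glul 1.35 and Axin2 1.16. Sds thus more than doubled, so its low place rests on the spread among mice of the other diets. The 2 mice of 129X1/SvJ had 550.1 and 538 CPM of Glul, 37.8 and 32.9 of Slc1a2, 359 and 352 of Hal and 201 and 198 of Gls2, and 2.34 and 1.44 of Rhbg.

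The BXD and AXB/BXA families, which share C57BL/6J as a parent and have DBA/2J and A/J as the other, were compared with the strain as the replicate. Axin2 was lower in BXD strains by -0.47 (SE 0.12, adjusted p 0.00369) and Slc1a2 by -0.46 (SE 0.16, adjusted p 0.0466), and none of the 10 was called higher, where 11.6% of 13794 genes were called, 5.02% lower and 6.62% higher. The median of Axin2 was 8.15 CPM in BXD (3.42 to 17.7) and 12.2 CPM in AXB/BXA (6.18 to 18.6), and that of Slc1a2 was 89.95 CPM (17.01 to 218) and 124 CPM (55.98 to 335), so both families overlapped widely. The library labelled BXD65 held the highest Axin2 level of the BXD strains. Without this library the adjusted p was 0.00118 for Axin2 and 0.0406 for Slc1a2. The Slc1a2 call was lost with limma on log2(TPM + 1) (0.0916), without a filter on low counts (0.0579) and with substrains summed (0.0730). The other 8 genes had log2 differences from -0.32 for Tbx3 (adjusted p 0.0928) to 0.27 for Sds (0.241). Of the further pericentral list, 5 of 27 were called lower in BXD, with Cyp2e1 at -0.46, and 2 higher.

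Many strains lay outside the range of their parents in the panel, each parent being a single mouse. For Slc1a2, C57BL/6J had 41.99 CPM, DBA/2J 86.4 and A/J 153 CPM. Of 56 BXD strains 30 were above both parents, 20 between and 6 below, and of 20 AXB/BXA strains 17 were between. For Gls2, C57BL/6J had 146, DBA/2J 201.8 and A/J 152 CPM, and 45 BXD and 19 AXB/BXA strains lay above both parents. For Hal 43 of 56 BXD strains did, with C57BL/6J at 198 and DBA/2J at 279.8 CPM. For Tbx3, 30 BXD strains were below both parents, at 38.5 CPM in C57BL/6J and 36.1 in DBA/2J, and 16 above. For Tbx3 in BXD and Gls2 in AXB/BXA the parents lay so close that strains had little room between them. Of the 56 BXD strains, 35 lay between the parents for Lgr5, 35 for Rhbg and 30 for Glul.

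In the small families the highest strain often differed between the zones. BXH10/TyJ was the highest of the 4 BXH strains for all 7 pericentral genes, among them Glul at 1091 CPM and Slc1a2 at 179.5 CPM, and BXH8/TyJ for all 3 periportal genes. BXH2/TyJ was the lowest for 4 pericentral genes, with Glul at 227 CPM and Axin2 at 2.84 CPM, and also for 2 of the 3 periportal genes, Hal at 140.4 CPM and Gls2 at 83.5 CPM. CXB12/HiAJ was the highest of the 3 CXB strains for 6 of 7 pericentral genes, all but Oat. For Oat and for all 3 periportal genes it was the lowest. The share of all genes at the ends in these strains was not counted either.

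Over all 114 strains 34 of the 45 pairs of members were correlated at an adjusted permutation p under 0.05 for Pearson's r, all of them positively, and 28 for Spearman's rho. The permutations treat the strains as independent, although the strains of a family share parents. Within the pericentral genes 18 of 21 pairs were called (median r 0.46), within the periportal genes 3 of 3, and between the zones 13 of 21 (median r 0.25, with 7 called for rho). No share of called pairs over all genes was set beside these counts or those within families. The highest pericentral r was that of Glul and Slc1a2, at 0.710 (rho 0.627, adjusted p 2.37e-05 and 3.46e-05, the smallest that 100000 permutations and 45 pairs gave). It was 0.682 without NZW/LacJ and BUB/BnJ, the strains farthest from the Glul median, 0.492 within BXD (adjusted p 0.00081) and 0.570 in AXB/BXA (adjusted p 0.112). All 3 uncalled pericentral pairs involved Tbx3. It followed Axin2 (r 0.533, rho 0.584, adjusted p 2.37e-05 and 3.46e-05), Glul (0.301, rho 0.312, 0.0019 and 0.00164) and Oat (0.283, rho 0.215, 0.00322 and 0.0357), and was not called with Slc1a2 (0.126, rho 0.0718, adjusted p 0.218 and 0.493), Rhbg (0.0349, rho 0.0675, 0.745 and 0.498) or Lgr5 (0.168, rho 0.195, 0.0909 and 0.0585). Without NON/ShiLtJ and NOR/LtJ the r of Tbx3 with Slc1a2 was 0.141.

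**Figure D4:**
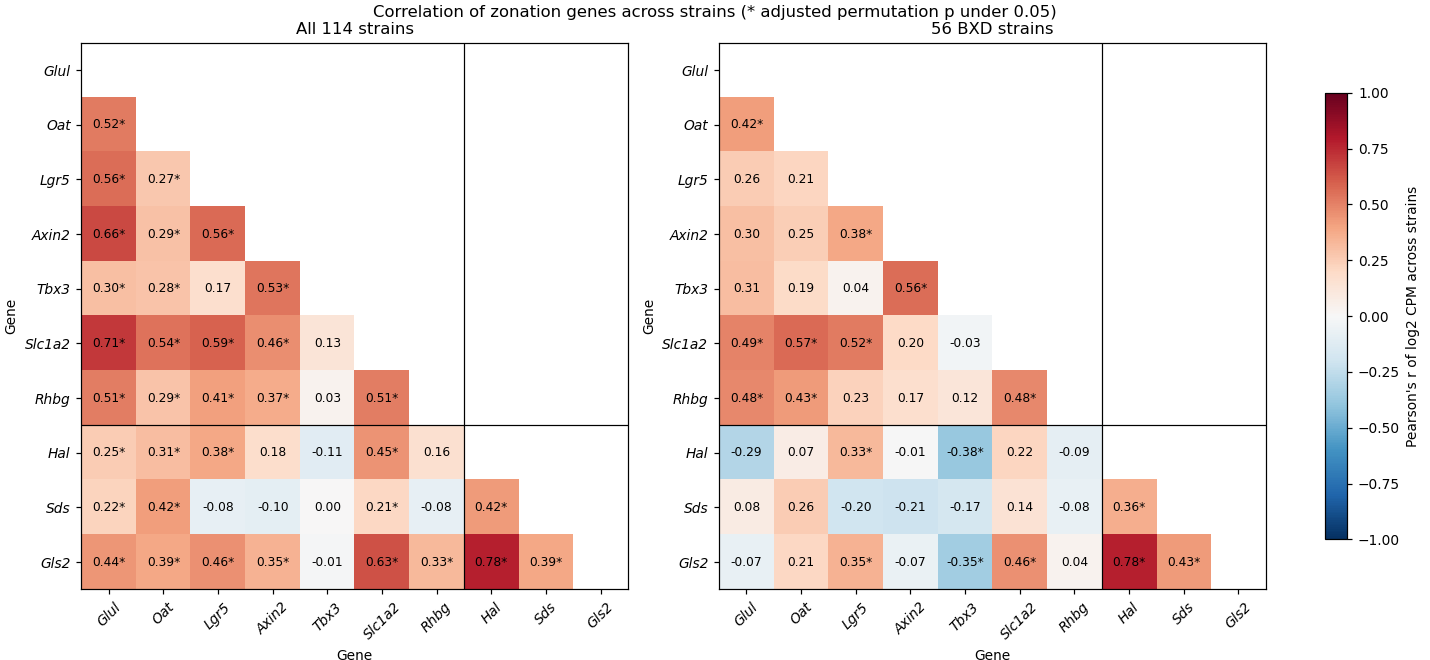
Pearson's r of log2 CPM for the 45 pairs of zonation genes over 114 strains (left) and over the 56 BXD strains (right), with an asterisk for an adjusted permutation p under 0.05 and lines between the zones. Of all pairs 34 carry an asterisk on the left and 17 on the right, where Tbx3 has negative values with Hal and Gls2.

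Hal and Gls2 were the most alike pair of the 45, with r 0.776 and rho 0.775 (adjusted p 2.37e-05 and 3.46e-05), 0.738 without BTBR T<+> tf/J and SJL/J, and 0.778 within BXD (adjusted p 0.000225). Sds followed Hal (r 0.425, rho 0.381, adjusted p 4.09e-05 and 9e-05) and Gls2 (r 0.389, rho 0.437, 4.09e-05 and 3.46e-05) less closely. Across the zones, Slc1a2 and Gls2 had r 0.633 and rho 0.469 (adjusted p 2.37e-05 and 3.46e-05), 0.550 without NZB/BlNJ and BTBR T<+> tf/J, and 0.457 within BXD (adjusted p 0.00259). Their r was 0.0856 in AXB/BXA (adjusted p 0.875) and 0.685 among the other inbred strains (adjusted p 0.00045). Glul and Gls2 had r 0.440 (adjusted p 2.37e-05) but rho 0.177 (0.0860), and within BXD r was -0.0725 (0.669). Within families fewer pairs were called: 17 of 45 in BXD, 1 in AXB/BXA and 15 among the other inbred strains, with a median r between the zones of -0.0076 in BXD. With values centred within families 27 pairs were called. In BXD strains Tbx3 was negatively correlated with Hal (r -0.376, adjusted p 0.0155) and Gls2 (-0.346, 0.0264) but not called with Sds (-0.175, 0.277), while over all strains r was -0.111 (rho -0.144, adjusted p 0.274 and 0.169) and -0.0106 (rho -0.121, 0.931 and 0.251). The difference between families in these values was not tested. On log2(TPM + 1), Tbx3 and Hal were called over all strains as a negative pair (r -0.199, adjusted permutation p 0.0471).

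**Figure D5:**
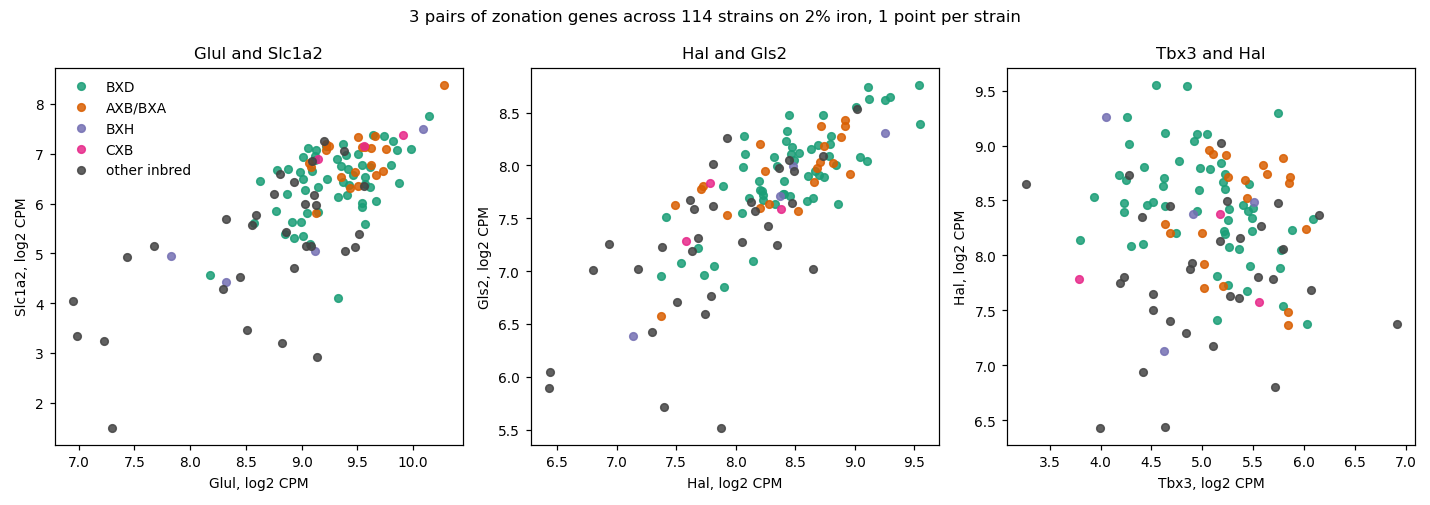
Log2 CPM of 3 pairs of zonation genes in 114 strains on 2% iron, with 1 point per strain coloured by family. Glul and Slc1a2 (r 0.710) and Hal and Gls2 (r 0.776) rise together, with several other inbred strains at the low end of both, and Tbx3 and Hal (r -0.111) do not.

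The non-member genes whose strain pattern was most like each member were named by Pearson's r over the 114 strains, as a description. They come from 12003 genes whose mean reached 1 CPM. The other members, predicted genes, Rik clones and pseudogenes were passed over. Some pairs of members had a higher r than genes named here, such as Hal and Gls2 (0.776) and Glul and Slc1a2 (0.710). Lgr5 was most like Aqp9 (0.716), Notum (0.715) and Sp5 (0.677). Axin2 was most like Ang (0.672), which encodes angiogenin, and Sp5 (0.659), and Glul like Teddm2 (0.768) and Ang (0.693). Teddm2 shares bases with Glul on the other strand, so their reads may not be separate. Tbx3 had the weakest neighbours beside Rhbg: Bcl9l (0.551), which encodes a coactivator of beta-catenin, Gulo (0.548), of vitamin C synthesis, and Keap1 (0.504). Oat was most like Lhpp (0.826), its neighbour on chromosome 7 at 132610638 to 132706420, 34.2 kb away, then Slc16a10 (0.617) and Tmem189 (0.570). Slc1a2 was most like Cyp2e1 (0.727), Pank1 (0.700), of coenzyme A synthesis, and Amacr (0.689), and Rhbg like Slc22a3 (0.535) and Lect2 (0.533). Among the periportal genes, Sds was most like Got1 (0.821), which encodes aspartate aminotransferase, and the urea cycle genes Asl (0.794) and Ass1 (0.760). Gls2 was most like Mdh1 (0.813), which encodes malate dehydrogenase, Hgd (0.777) and Hyal1 (0.760), and Hal like Mdh1 (0.771), Hpd (0.728) and Amdhd1 (0.722), which lies 4.0 kb from Hal on chromosome 10.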

How the data were processed

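RNA-seq of 130 livers was used. Per the labels' protocols, RNA came from liver pieces of 20 mg and libraries from the KAPA Stranded mRNA-Seq kit. The submitters' processing notes name kallisto 0.46 and mm10; strand setting and summing to genes are not given in the sources used here. The authors deposited expected counts, not normalized, and TPM for each gene; the name of the panel table points to Ensembl 97. Expected counts were rounded to whole numbers, since the planned test needs counts. Symbols and coordinates are from GENCODE M21 (GRCm38), matching 34845 of 35274 and 35612 of 35711 identifiers.

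Tests were two-sided: edgeR 4.0.16 (glmQLFit, glmQLFTest, TMM, filterByExpr, Benjamini-Hochberg) in R 4.3.3, with the 15 diet mice in a joint fit and the families in another. Unless another tool is named, adjusted p-values are edgeR's. All 10 members passed the filter in both tables. Log2 CPM used a prior count of 2. Correlations used 100000 permutations, adjusted over 45 pairs; no member fell into separate strain clusters by a mixture rule (Ashman D over 3, BIC gain over 10). The alternatives were unfiltered genes, a minimum of 10 counts, RLE factors, compared groups alone, DESeq2 1.42.0, limma 3.58.1 on log2(TPM + 1) and log2(TPM + 0.1), mice left out in turn, substrains summed, and others given with the results. Python 3.11.15, numpy 2.4.6, scipy 1.17.1, pandas 2.3.3, scikit-learn 1.9.0 and matplotlib 3.10.9 were used. The tests were tried on simulated data.

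The members and gene lists were chosen with earlier results of these data known. Named were the members, called genes of the Wnt and nitrogen lists, the largest called changes of other lists, the 3 non-member genes most like each member, and end strains and parents. A few genes that this rule names are not reported here. Cyp7a1, Ctnnb1, the 4 uncalled urea cycle genes, Amdhd1, Ftcd and Uroc1, the genes named for cellulose, and the BXD48, BXH and CXB strains were chosen after their values were seen.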

Additional observations from a re-analysis of the deposited data

How the results depend on the processing

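Leaving out a mouse gave 1003 to 2333 called genes for 2% iron against 50 ppm, 788 to 2204 against 500 ppm, 2151 to 3320 against chow, 2708 to 4206 for cellulose against 50 ppm, 0 to 212 for cellulose against 2% iron, 4 to 63 for chow against 50 ppm and 0 to 0 for 500 ppm against 50 ppm. The pericentral genes called lower then numbered 1 to 5, 0 to 3, 3 to 5, 6 to 7, 0 to 3, 0 to 0 and 0 to 0, and the periportal genes called either way 0 to 0, 0 to 0, 1 to 2, 0 to 2, 0 to 0, 0 to 0 and 0 to 0. No paired analysis was possible because the labels give no replicate numbers and no pairing of mice.

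With limma on log2(TPM + 1) and log2(TPM + 0.1) the called genes numbered 1208 and 1161, against 2127 in edgeR, for 2% iron against 50 ppm, 910 and 862 (1538 in edgeR) against 500 ppm, 1945 and 1987 (3087) against chow, 2657 and 2546 (4026) for cellulose against 50 ppm, 18 and 18 (11) for cellulose against 2% iron, 21 and 14 (53) for chow against 50 ppm, and 906 and 917 (1606) for BXD against AXB/BXA. DESeq2 gave 2 for 500 ppm against 50 ppm, 144 for chow against 50 ppm and 219 for cellulose against 2% iron. The compared groups alone gave 924 for 2% iron against 500 ppm, 26 for chow against 50 ppm and 23 for cellulose against 2% iron, where no filter gave 51 and at least 10 counts 26. TPM was used without TMM or similar factors between libraries. The median log2 change over all genes was then 0.10 (2% iron against chow) and 0.11 (cellulose against 50 ppm), or 0.14 for both with the smaller pseudocount. The higher share of calls went from 54.3% to 66.6% for 2% iron against 50 ppm, 58.1% to 74.7% against 500 ppm, 52.1% to 71.0% against chow, 51.7% to 73.7% for cellulose against 50 ppm and 9.09% to 27.8% for cellulose against 2% iron.

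Of the pericentral genes, 5 were called lower on 2% iron against 50 ppm with the compared groups alone and 1 with limma on log2(TPM + 1). Against 500 ppm it was 2 with DESeq2 and 0 and 0 with limma, and against chow 5 with the groups alone and 5 with DESeq2. For cellulose against 2% iron it was 2 with no filter, 1 with at least 10 counts and 2 with DESeq2. For BXD against AXB/BXA it was 1 with no filter, 1 and 1 with limma and 1 with substrains summed. Of the periportal genes, 1 was called for chow against 50 ppm with no filter and 1 with DESeq2, which also called the pericentral Oat and Rhbg higher on chow, and for cellulose against 50 ppm 3 with the groups alone and 1 with DESeq2. The cause of these shifts was not tested. Pairs called were 27 to 34 under the alternatives.

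Signs turned only for values that were not called. For 500 ppm against 50 ppm, Lgr5 was 0.034 and 0.003 and Gls2 -0.008 and -0.008 with limma, Gls2 was -0.11 without 500 ppm mouse 1, -0.002 without mouse 2 and -0.03 without 50 ppm mouse 1, Sds was -0.184 without 500 ppm mouse 2 and -0.116 without 50 ppm mouse 1, and Hal -0.027 without 500 ppm mouse 2. For 2% iron, Hal was -0.006 against 50 ppm without 2% mouse 2, and against 500 ppm 0.112 and 0.113 with limma and 0.021 and 0.113 without 500 ppm mouse 1 or 2. Sds against chow was -0.038 without chow mouse 3. For chow against 50 ppm, Axin2 was -0.085 and -0.108 and Tbx3 -0.088 and -0.094 with limma, Tbx3 -0.07 without 50 ppm mouse 2 and Sds -0.192 without chow mouse 2. For cellulose against 2% iron, Axin2 was 0.043 and 0.012 without cellulose mouse 1 or 2. The r of Tbx3 and Sds was -0.015 without the 2 farthest strains and -0.036 on log2(TPM + 1). The other ends of these ranges over mice left out were, for 500 ppm against 50 ppm, 0.422 for Hal, 0.427 for Sds and 0.189 for Gls2, for 2% iron 0.163 for Hal against 50 ppm, -0.335 for Hal against 500 ppm and 0.835 for Sds against chow, for chow against 50 ppm 0.201 for Tbx3 and 0.69 for Sds, and for cellulose against 2% iron -0.913 for Axin2. Depth limits Rhbg and Lgr5 most.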

Other observations

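Lines with nearly the same name differed in several members. AXB19/PgnJ, AXB19a/PgnJ and AXB19b/PgnJ had 809, 787 and 542 CPM of Glul. For Lgr5, the R-spondin receptor gene, they had 9.23, 3.12 and 6.99 CPM, and for Tbx3 33.3, 64.8 and 42.8 CPM. BXD48/RwwJ and BXD48a/RwwJ had 8.09 and 2.185 CPM of Lgr5 and 64.1 and 23.7 CPM of Slc1a2, while the periportal Hal was lower in the former, at 166 and 282 CPM. Each line was 1 mouse, so these differences were not tested.

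The C57BL/6J mouse of the panel had 732 CPM of Glul, 260.1 of Oat, 41.99 of Slc1a2 and 0.956 of Rhbg, and 198 of Hal. The diet mice of that strain on 2% iron had 678 to 769 CPM of Glul, 269 to 418 of Oat, 61.7 to 70.1 of Slc1a2 and 0.705 to 1.36 of Rhbg, and 261 to 328 of Hal. Slc1a2, Oat and Hal of the panel mouse lay below the diet mice, and the tables were processed separately.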
